A study of Mus musculus with 16 samples.

Results

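Heat shock proteins are chaperones that bind unfolded or newly made proteins and help them to fold. The 10 described here in cultured mouse hair follicle stem cells (HFSCs) and their progenitors are the cytosolic HSP70 proteins Hspa1a, Hspa1b and Hspa8 with their cofactors Dnajb1 and Hsph1, the cytosolic HSP90 proteins Hsp90aa1 and Hsp90ab1, the small heat shock protein Hspb1, and the mitochondrial pair Hspd1 (HSP60) and Hspe1 (HSP10). The genes were chosen by name from the 22579 genes measured, and the transcript with the most ribosome footprints over all Ribo-seq libraries stood for each gene. RNA-seq measured the amount of each message. Ribo-seq, made from the rest of the same lysate, sequences the pieces of message that ribosomes protect from nuclease, so that its counts follow how much a message is being translated.

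Cells of C57BL/6J mice spent 2 weeks in 3D-3C culture, an organoid system in which HFSCs and progenitors coexist, and were then sorted into α6+CD34- progenitors and α6+CD34+ HFSCs. Cultures were left untreated or received N1-acetylspermidine (N1-AcSpd), an acetylated polyamine, for 72 h. The 4 groups were untreated progenitors, untreated HFSCs, N1-AcSpd progenitors and N1-AcSpd HFSCs, and each held 2 RNA-seq and 2 Ribo-seq libraries from the cultures of 2 mice, which makes 16 libraries in all. In the values below mouse 1 comes before mouse 2. With 2 mice, the p-values measure only the spread between these few cultures, and the comparisons share libraries with each other.

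HSP70 proteins bind and release their clients in a cycle driven by ATP, which J-domain proteins such as Dnajb1 start and nucleotide exchange factors such as Hsph1 complete. HSP90 proteins act later in folding, largely on kinases and receptors, while small heat shock proteins such as Hspb1 hold unfolded proteins without using ATP, and Hspd1 and Hspe1 form the folding chamber of the mitochondrial matrix. Hspa8 and Hsp90ab1 are made by most cells at all times. Hspa1a, Hspa1b, Dnajb1, Hsph1, Hspb1 and Hsp90aa1 are known as genes that heat and protein damage switch on through heat shock factor 1, which binds repeats of the letters GAA and TTC.

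RefSeq promoter windows (GRCm38.p6) were given for 7 of the 10 genes, all but Hspa8, Hsp90aa1 and Hsp90ab1. The 250 bases upstream of each start site were searched for GAANNTTC and TTCNNGAA, each of which reads the same on both strands. Of the 7 genes, 6 held at least 1 of these pairs (Hspa1a, Hspa1b, Hspb1, Hsph1, Hspd1 and Hspe1) and Dnajb1 held none, while 14.5% of all 27025 genes with a window did so in at least 1 of theirs (12.8% of all 32851 windows). A longer run, in which such a pair is followed after any 2 bases by the next GAA or TTC in alternation, occurred in 2 of the 7 genes, Hspd1 and Hspe1, and in 0.514% of all genes (0.466% of windows). The matches are printed with their letters in capitals because the members of each gene pair share them, and a match is a run of letters and not a measured binding site.
Hspe1 (chr1:55088053-55088082, plus strand): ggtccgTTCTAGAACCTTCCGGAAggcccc
Hspd1 (chr1:55088053-55088082, minus strand): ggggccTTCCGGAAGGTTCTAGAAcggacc
Hspa1a (chr17:34972227-34972286, minus strand): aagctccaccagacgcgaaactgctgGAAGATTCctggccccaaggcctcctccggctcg
Hspa1b (chr17:34959309-34959368, minus strand): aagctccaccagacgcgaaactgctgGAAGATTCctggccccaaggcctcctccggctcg
Hspb1 (chr5:135887786-135887845, plus strand): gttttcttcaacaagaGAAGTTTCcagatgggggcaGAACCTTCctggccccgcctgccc
Hsph1 (chr5:149636351-149636380, minus strand): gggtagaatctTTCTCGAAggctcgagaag
The Hspe1 and Hspd1 lines are both strands of the same 30 bases. These lie between the divergent start sites of Hspe1 and of 1 of the 2 windows of Hspd1. The other Hspd1 window held no match. Over the whole 250 upstream bases Hspa1a and Hspa1b differed at 3 positions, none of them in the 60 bases shown.

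Several of these genes have near copies in the mouse genome, and a read from a copied stretch has no single origin. Each coding sequence was therefore cut into all its words of 28 bases, within the 24 to 36 nt taken for Ribo-seq, and a word was called unique where it occurred at no more than 1 place in the genome and in no transcript of another gene. The median over 22379 coding genes was 99.8% unique words. Dnajb1 and Hsph1 were unique throughout (100%) and Hsp90ab1 mostly so (73.3%). The other 7 held few unique words, with 17.3% in Hspd1, 12.9% in Hspe1, 10.6% in Hspa1b, 9.17% in Hspb1, 7.09% in Hsp90aa1, 6.43% in Hspa1a and 4.55% in Hspa8.

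The nearest copies differ by a handful of bases. Hspa1a (chr17:34969190-34972156, GRCm38, 1 exon) and Hspa1b (chr17:34956436-34959238, 1 exon) lie on the minus strand of chromosome 17 and differed at 8 of 1923 aligned coding bases. Hspa8 (chr9:40800984-40805200, 9 exons) shared words with 16 other genes, 14 of them pseudogenes, and differed at 5 of 1938 coding bases from the processed pseudogene Gm15459 on chromosome 5. Hsp90aa1 (chr12:110691028-110696289, 11 exons) differed at 11 of 2199 bases from the transcribed pseudogene Gm12346 on chromosome 11. These pseudogenes have no introns and carry little that a footprint could be told apart by. Hspb1 (chr5:135887919-135889563, 3 exons) differed at 4 of 627 bases from the pseudogene Hsp25-ps1 on chromosome 13, and Hspd1 (chr1:55077835-55088024, 12 exons) shared words with 18 pseudogenes. The stretch of 120 coding bases with the most differences is printed for 2 of these pairs, with the differing bases in capitals, to show how far a footprint could lie from any difference.
Hspa1a, coding bases 1297 to 1416: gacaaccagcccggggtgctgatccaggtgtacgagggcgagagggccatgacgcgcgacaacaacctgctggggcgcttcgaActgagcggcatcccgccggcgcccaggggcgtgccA
Hspa1b, coding bases 1297 to 1416: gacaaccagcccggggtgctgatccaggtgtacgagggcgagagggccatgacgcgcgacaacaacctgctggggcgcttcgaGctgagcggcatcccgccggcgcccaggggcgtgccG
Hspa8, coding bases 1 to 120: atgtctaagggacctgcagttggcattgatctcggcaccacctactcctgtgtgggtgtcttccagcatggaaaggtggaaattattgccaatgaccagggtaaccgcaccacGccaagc
Gm15459, matching bases 1 to 120: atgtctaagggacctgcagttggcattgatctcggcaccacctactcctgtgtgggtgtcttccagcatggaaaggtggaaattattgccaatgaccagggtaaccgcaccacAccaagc
How reads that match several places were counted is not given in the sources used here, so the split of counts between Hspa1a and Hspa1b is uncertain. Gm20481 also overlaps Hspa1a on the other strand. Counts on the pseudogenes were not analysed here.

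RNA-seq libraries held 21601141 to 31505435 counts on the transcripts kept and Ribo-seq libraries 34467 to 267921, so that footprint values carry far more counting error. Keratinocyte messages were high in every RNA-seq library, with Krt5 between 18139 and 21514 CPM (counts scaled to the same total in each library), whereas markers of other skin cells were low. Their summed level was 1.07 to 13.6 CPM for 5 fibroblast markers, 0.792 to 2.12 for 5 melanocyte markers, 0.271 to 3.18 for 5 immune, 0.625 to 1.62 for 3 endothelial and 0 to 0.156 for 3 Merkel cell markers. Cd207, Tyrobp, Cdh5 and Atoh1 were at 0 throughout, while Cd74 (0.271 to 3.14 CPM) and Pecam1 (0.338 to 1.62 CPM) had counts in every library. HFSC markers, which include Cd34, summed to 270 to 450 CPM in progenitors and 657 to 1331 CPM in HFSCs. All 6 were higher in HFSCs, 4 of them called. Markers of differentiated keratinocytes moved with both comparisons made below. Summed over 7 genes they read 420 and 432 CPM in untreated progenitors, 220 and 303 in untreated HFSCs, 877 and 650 in N1-AcSpd progenitors, and 293 and 383 in N1-AcSpd HFSCs. All 7 were lower in HFSCs, 4 of them called, and all 7 were higher with N1-AcSpd, 2 of them called. Their part in the results below was not tested. In bulk libraries fewer cells of a type and less RNA per cell cannot be told apart. Over genes, the deviations of same-mouse RNA-seq libraries from their group means correlated at 0.40 to 0.74 among the other 3 groups and at -0.69 to -0.38 with N1-AcSpd HFSCs, so the same-mouse pairs that use the N1-AcSpd HFSC libraries rest on their labels alone and are also given with those libraries exchanged.

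The RNA levels of the 10 genes spanned a wide range. Per kb of transcript, the median over the 8 libraries was 1274 CPM for Hspb1 (range 1031 to 1639), 1017 for Hsp90ab1 (922 to 1125) and 744 for Hspa8 (659 to 800). Hspb1 and Hsp90ab1 overlapped in range, and Hsp90ab1 and Hspa8 did not. Hspd1 followed at 193 CPM per kb (144 to 241), Hspe1 at 185 (155 to 205) and Hsp90aa1 at 138 (96.0 to 166), each overlapping the next of these. Below them, without overlap, stood Dnajb1 at 58.2 CPM per kb (48.4 to 59.7), which overlapped Hspa1b at 45.1 (38.0 to 50.9), then Hsph1 at 19.7 (16.3 to 24.8) and Hspa1a at 8.85 (7.62 to 10.3). All 10 were above 4.74 CPM per kb, the median over 15997 genes with a count.

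Within each gene the libraries were much alike, and the highest exceeded the lowest by 1.21 to 1.73 times. Hspa8 ran from 1578 to 1915 CPM and Hsp90ab1 from 2323 to 2836 CPM. The widest spread was that of Hsp90aa1, from 274 CPM in untreated HFSCs of mouse 2 to 473 CPM in N1-AcSpd progenitors of mouse 1.

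**Figure D1:**
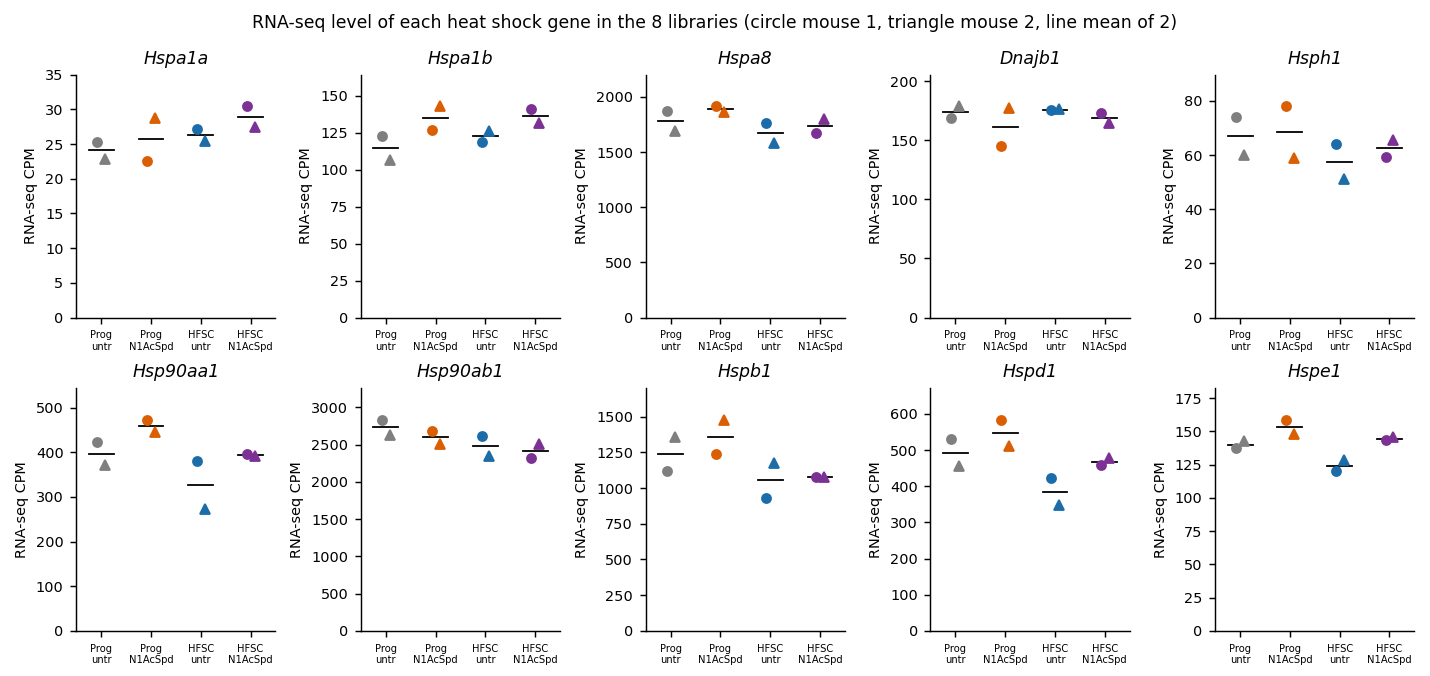
RNA-seq level (CPM, vertical axis) of each of the 10 genes in the 4 groups of 2 libraries, with the group mean. No gene varied by more than 1.73 times between its lowest and its highest library, and Hspd1 and Hspb1 read lower in HFSCs than in progenitors of the same mouse and treatment.

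The first comparison asked whether HFSCs and progenitors differ in these messages. Averaged over both treatments, 7 of the 10 genes were on the lower side in HFSCs and 3 on the higher. Their median log2 fold change was -0.13, against -0.01 over all 14205 genes tested. The mitochondrial chaperonin Hspd1, the small heat shock protein Hspb1 and the inducible HSP90 gene Hsp90aa1 had the smallest p-values, all on the lower side. Their coding sequences held few unique words (17.3%, 9.17% and 7.09%), and the part of read placement in their RNA values was not tested. None of the 10 passed an adjusted p of 0.05 in edgeR's quasi-likelihood test, which called 3.91% of all genes, and none passed in DESeq2. Nor did any pass in untreated cells, where 0.148% of all genes were called, or under N1-AcSpd, where 0.746% were. With the mouse as a replicate block the calls over all genes went from 21 to 3 in untreated cells and from 106 to 44 under N1-AcSpd, with no member among them. With the mouse numbers of the N1-AcSpd HFSC libraries exchanged in that block, a choice made after the data were seen, edgeR called 751 genes (5.29%) in untreated cells, Hspd1 among them, and 1948 (13.7%) averaged over treatments, Hspd1 and Hspb1 among them.

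Hspd1, the barrel of the mitochondrial folding chamber, read 531 and 455 CPM in untreated progenitors, 421 and 349 in untreated HFSCs, 584 and 511 in N1-AcSpd progenitors, and 458 and 477 in N1-AcSpd HFSCs. HFSCs were lower in each mouse under each treatment, while the 4 HFSC and 4 progenitor libraries overlapped as a whole. The log2 fold change was -0.29 (SE 0.093, adjusted p = 0.136 by edgeR). Hspe1 (chr1:55088132-55091307, 4 exons), its lid, read 137 and 142 CPM in untreated progenitors, 120 and 128 in untreated HFSCs, 159 and 148 in N1-AcSpd progenitors, and 143 and 146 in N1-AcSpd HFSCs. It was also lower in HFSCs in each mouse, by a smaller log2 fold change of -0.13 (SE 0.067, adjusted p = 0.362 by edgeR).

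Hspb1 read 1122 and 1358 CPM in untreated progenitors, 931 and 1179 in untreated HFSCs, 1235 and 1480 in N1-AcSpd progenitors, and 1079 in both N1-AcSpd HFSC libraries. Mouse 2 stood above mouse 1 in the other 3 groups, and HFSCs stood below progenitors in each mouse. The log2 fold change was -0.28 (SE 0.11, adjusted p = 0.207 by edgeR).

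Hsp90aa1 read 423 and 371 CPM in untreated progenitors, 380 and 274 in untreated HFSCs, 473 and 446 in N1-AcSpd progenitors, and 395 and 393 in N1-AcSpd HFSCs. HFSCs were again lower in every mouse and treatment, and the log2 fold change was -0.25 (SE 0.11, adjusted p = 0.261 by edgeR). Hsp90ab1 (chr17:45567775-45573271, 11 exons), the constitutive HSP90 gene, had a log2 fold change of -0.12 (SE 0.078).

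The HSP70 genes were divided. Hspa8 had a log2 fold change of -0.11 (SE 0.078) and the exchange factor Hsph1 (chr5:149614287-149636171, 19 exons) of -0.18 (SE 0.12), while Hspa1a at 0.15 (SE 0.10), Hspa1b at 0.06 (SE 0.080) and Dnajb1 (chr8:83608193-83612653, 3 exons) at 0.04 (SE 0.081) were on the higher side. The 95% intervals of these 5 genes and of Hsp90ab1 and Hspe1 all held 0, the widest being that of Hsph1 from -0.46 to 0.10.

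At an unadjusted p under 0.05, 3 of the 10 genes were lower in HFSCs and none higher, where 8.88% of all genes were lower and 18.1% passed in either direction. Of the 10, 6 (Hspa8, Hsp90aa1, Hsp90ab1, Hspb1, Hspd1 and Hspe1) were lower in HFSCs in all 4 pairs of the same mouse and treatment, as were 16.4% of all genes, and none was higher in all 4, as were 14.8%. With the N1-AcSpd HFSC libraries exchanged the same 6 were lower, and Hspa1a was higher in all 4. These genes are not separate observations, since Hspd1 had a Pearson r of 0.96 with Hsp90aa1 and of 0.90 with Hspa8 over the 8 libraries. No member separated the 4 HFSC from the 4 progenitor libraries without overlap, which 5.1% of all genes did on the higher and 4.42% on the lower side.

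The second comparison asked what N1-AcSpd does to these messages. Averaged over both cell types, 8 of the 10 genes were on the higher side with N1-AcSpd and 2 on the lower. Their median log2 fold change was 0.10, against -0.01 over all genes. Hsp90aa1, Hspd1, Hspa1b and Hspe1 had the largest estimates, 1.13 to 1.18 times the untreated level. All of them held few unique words, and the part of read placement was again not tested. None of the 10 passed the adjusted threshold in edgeR or DESeq2. In edgeR 1.64% of all genes did so in the averaged comparison, 0.239% in progenitors and 0% in HFSCs. With the replicate block the averaged calls went from 233 to 135 and those in progenitors from 34 to 7, with no member among them.

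All 4 treated libraries of Hspe1 lay above all 4 untreated ones, with 143.4 CPM the lowest treated and 142.4 CPM the highest untreated value. Its log2 fold change was 0.18 (SE 0.067, adjusted p = 0.246 by edgeR). Hspd1 was higher with N1-AcSpd in each of the 4 pairs, at 0.22 (SE 0.093, adjusted p = 0.309 by edgeR), though its treated and untreated libraries overlapped.

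Hspa1b read 123 and 106 CPM in untreated progenitors, 119 and 126 in untreated HFSCs, 127 and 143 in N1-AcSpd progenitors, and 141 and 131 in N1-AcSpd HFSCs. Treated and untreated libraries did not overlap, narrowly, with 126.7 CPM against 126.2 CPM at the closest. The log2 fold change was 0.19 (SE 0.080, adjusted p = 0.292 by edgeR). Its near copy Hspa1a, at 22.6 to 30.5 CPM, had a log2 fold change of 0.12 (SE 0.10) and overlapping groups. Hspe1 and Hspa1b were the 2 members whose treated libraries all stood higher, as did those of 3.95% of all genes, and none had them all lower, as did 3.88%.

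Hsp90aa1 had the largest estimate at 0.24 (SE 0.11, adjusted p = 0.328 by edgeR). The constitutive genes were near 0, with Hspa8 at 0.07 (SE 0.078) and Hsp90ab1 at -0.06 (SE 0.078), and so were Hspb1 at 0.08 (SE 0.11), Hsph1 at 0.07 (SE 0.12) and Dnajb1 at -0.09 (SE 0.081). Within mice, 4 members (Hspa1b, Hsp90aa1, Hspd1 and Hspe1) were higher in all 4 pairs, as were 13% of all genes, and Dnajb1 was lower in all 4, as were 14.3%. The exchange kept these 5 genes and added Hspa8 on the higher and Hsp90ab1 on the lower side. At an unadjusted p under 0.05, 3 members were higher (Hspa1b, Hspd1 and Hspe1), where 7.63% of all genes were higher and 15.6% passed in either direction.

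In the comparisons within a treatment or a cell type, Hspd1 passed the unadjusted threshold in untreated HFSCs over progenitors at -0.36 (SE 0.13, adjusted p = 0.409 by edgeR), as did 9.58% of all genes. Hspe1 passed it for N1-AcSpd in HFSCs at 0.22 (SE 0.095, adjusted p = 0.634 by edgeR), as did 7.74%. No member passed in HFSCs over progenitors under N1-AcSpd (11.2% of all genes) or for N1-AcSpd in progenitors (8.88%). A different effect of N1-AcSpd in the 2 cell types was not detected for any member: the interaction called 0% of all genes, 0.831% passed unadjusted, and the members' estimates lay between -0.10 and 0.13 with 0.509 as their smallest unadjusted p by edgeR.

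**Figure D2:**
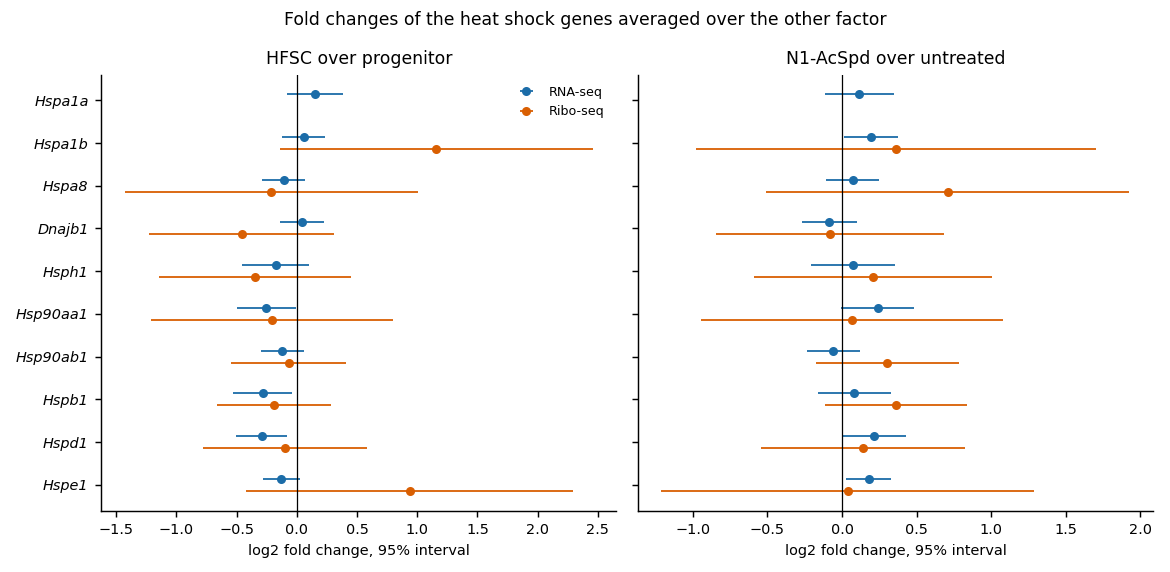
log2 fold change (horizontal axis) of each gene in HFSCs over progenitors and in N1-AcSpd over untreated, each averaged over the other factor, with 95% intervals from edgeR for RNA-seq and Ribo-seq (Hspa1a had too few footprints for a fit). RNA-seq values lie between -0.29 and 0.24, and Ribo-seq intervals are widest for Hspa1b, Hspa8 and Hspe1.

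Genes that work beside these chaperones were read in 6 lists that name 83 genes, 80 of them tested in RNA-seq: heat shock factors and regulators, HSP70 cycle partners, HSP90 cochaperones, other small heat shock proteins, the cytosolic chaperonin with prefoldin, and mitochondrial chaperones and proteases. Of the 80, 25 were on the higher and 55 on the lower side in HFSCs (median log2 fold change -0.07), against 48.9% of all genes on the higher side. Among the 80, 1 was called, where 3.91% of all genes were. Unadjusted, 3 higher and 11 lower passed, where 18.1% of all genes passed and 8.88% were lower. With N1-AcSpd 53 were on the higher and 27 on the lower side, with a median of 0.04, against 47.1% of all genes on the higher side. There edgeR called none of the 80, against 1.64% of all genes. At an unadjusted p under 0.05, 8 were higher and 2 lower, where 15.6% of all genes passed and 7.63% were higher. Chaperonin and prefoldin genes were the most one-sided of the 6 lists in HFSCs, with 12 of 13 on the lower side and a median of -0.12. In this list edgeR called none (1 lower at an unadjusted p under 0.05).

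The called gene was Fkbp5, an HSP90 cochaperone of steroid receptors. It read 75.4 and 74.5 CPM in untreated progenitors, 103 and 111 in untreated HFSCs, 70.1 and 68.2 in N1-AcSpd progenitors, and 95.9 and 91.7 in N1-AcSpd HFSCs, with no overlap between the cell types. Fkbp5 rose in HFSCs by 0.48 on the log2 scale (SE 0.067, adjusted p = 0.00809 by edgeR), while neither treatment alone passed (adjusted p = 0.0792 untreated and 0.0951 under N1-AcSpd by edgeR). Afg3l2, a subunit of a protease of the mitochondrial inner membrane, stood next at -0.27 (SE 0.068, adjusted p = 0.0670 by edgeR). Cryab, a small heat shock protein, stood at -0.63 (SE 0.20, adjusted p = 0.139 by edgeR). Hspa2, an HSP70 abundant in testis, read 10.9 and 15.7 CPM in untreated progenitors and 17.3 and 29.3 in untreated HFSCs, and had a log2 fold change of 0.76 over both treatments (SE 0.22, adjusted p = 0.100 by edgeR).

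With N1-AcSpd the smallest p-values of these lists were those of Ppid, a cyclophilin that binds HSP90, at 0.26 (SE 0.076, adjusted p = 0.152 by edgeR), of Afg3l2 at 0.21 (SE 0.068, adjusted p = 0.179 by edgeR), and of the prefoldin subunit Pfdn4 at 0.27 (SE 0.092, adjusted p = 0.197 by edgeR). None passed the threshold. The summed level of 12 immediate early genes, which handling of cells can raise, lay between 1624 and 2391 CPM, both extremes in N1-AcSpd progenitors, and edgeR called none of the 12 in the averaged comparisons, where 0 passed unadjusted.

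Outside the members, the RNA profiles most like the mean of Hspd1 and Hspe1 over the 8 libraries were those of Epb41 (Pearson r 0.99), Fam98a, Knop1, Kbtbd8 and Reep6 (0.98 each), among 10156 genes. Most like the mean of Hspa1a, Hspa1b, Dnajb1 and Hsph1 were Tbc1d12 (0.97) and then Adat1, Upf3a, Fam60a and Gnaq (0.93 each). Hspa1a and Hspa1b had an r of 0.74 with each other and Hspd1 and Hspe1 of 0.75, while Dnajb1 and Hsph1, which serve the same cycle, ran opposite at -0.76. These values describe 8 libraries that share mice and cultures.

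Footprints ranked the genes differently from messages. Over the 8 Ribo-seq libraries Hspb1 had 3101 footprints and Hsp90ab1 2681, whereas Hspa8 had 56 although its 360283 RNA counts exceeded the 237357 of Hspb1. Hspd1 had 238 footprints, Dnajb1 171, Hsph1 151, Hsp90aa1 87, Hspa1b 52 and Hspe1 44. Hspa1a had 4 in 2 libraries, under the mean of 1 count that a test required, and the 3-count floor of the Ribo-seq libraries lay at 11.2 to 87.0 CPM.

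The share of all footprints was divided by the share of all RNA counts. If both assays counted the same bases, this ratio would be near 1 for a gene loaded like the average message. The counted region is not given, and coding bases make up 1020 of 2996 in Dnajb1 and 1938 of 2394 in Hspa8. The part of noncoding bases in the ratios was not tested. The median ratio over the 6382 genes with at least 5000 RNA counts was 0.979. The ratio reached 3.15 for Hspb1 (95% Poisson interval 3.04 to 3.26), 2.79 for Hsph1 (2.37 to 3.28), 1.24 for Hsp90ab1 (1.19 to 1.29) and 1.19 for Dnajb1 (1.02 to 1.38). These intervals cover counting error only. The other 6 genes were below 1, with 0.600 for Hspd1, 0.485 for Hspa1b, 0.372 for Hspe1, 0.263 for Hsp90aa1, 0.179 for Hspa1a and 0.0374 for Hspa8 (0.0283 to 0.0486). Among those 6382 genes Hspa8 stood at percentile 2.55 and Hspb1 at percentile 95.6.

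The ratio differed with sequence uniqueness. The 6 genes below 1 are 6 of the 7 members with under 20% unique words, a limit set after the shares were seen. Among all genes under that limit the median ratio was 0.186 (460 genes, 18.5% of them with no footprint). It was 0.960 among genes with 20 to 95% unique words (1553 genes) and 1.04 among those with at least 95% (4369 genes). Hspd1, Hspa1b, Hspe1 and Hsp90aa1 lay above the median of 0.186, and Hspa1a and Hspa8 below it. All 6 lay between the quartiles of that class, 0.0199 and 0.767. Hspb1, with 9.17% unique words, had the highest ratio of the 10 all the same. The part of read placement in the low ratios was not tested.

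**Figure D3:**
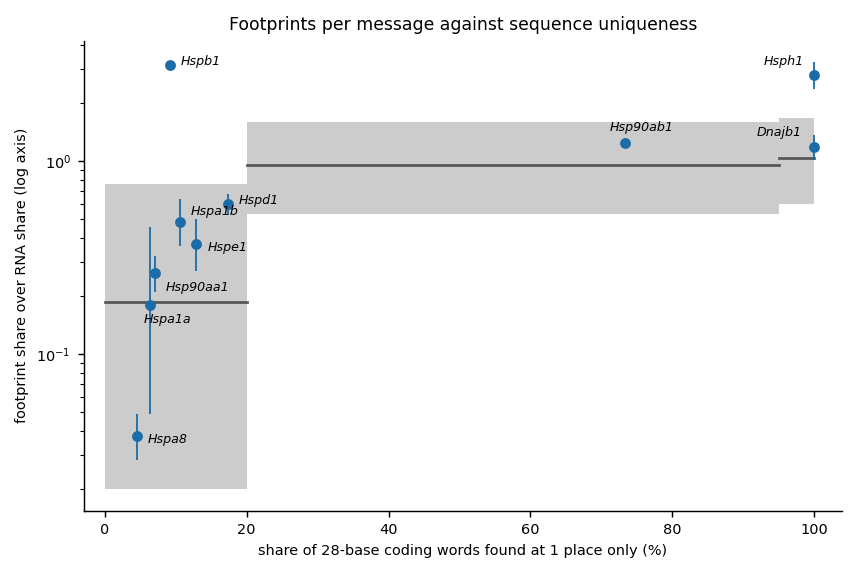
Footprint share over RNA share (vertical log axis) against the percent of 28-base coding words found at 1 place only (horizontal axis) for the 10 genes, with 95% Poisson intervals, beside the median and quartiles of all genes in 3 classes of uniqueness. Of the 7 members under 20%, 6 lie below 1 and Hspb1 lies at 3.15.

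Per lysate, the ratio of Hspb1 was 1.44 and 3.20 in untreated progenitors, 3.35 and 2.59 in untreated HFSCs, 2.97 and 3.67 in N1-AcSpd progenitors, and 2.72 and 3.58 in N1-AcSpd HFSCs. The lowest of these came from the shallowest library, which held 55 footprints on Hspb1. Hspa8 stayed between 0.0208 and 0.0626 and Hsp90aa1 between 0.129 and 0.458, so that Hspb1, Hsp90aa1 and Hspa8 kept this order in every lysate. For N1-AcSpd HFSCs the pairing of RNA-seq with Ribo-seq libraries rests on their labels alone.

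Footprint levels between groups were read mainly from Hspb1 and Hsp90ab1. Hspb1 read 1384 and 4638 footprint CPM in untreated progenitors, 3044 and 3323 in untreated HFSCs, 3797 and 5581 in N1-AcSpd progenitors, and 3141 and 3816 in N1-AcSpd HFSCs. Untreated progenitors, the shallowest and the deepest library, spanned nearly the whole range. Hsp90ab1 read 2190 and 3592, 2740 and 2528, 3872 and 2933, and 4097 and 2771 footprint CPM in the same order of groups, and of the 4 pairs of groups compared only N1-AcSpd and untreated HFSCs did not overlap, at 2771 against 2740. In that comparison Hspa8 and Hsp90ab1 were higher without overlap, as were 16.4% of all genes, and Hspd1 was lower, as were 15.9%. For N1-AcSpd in progenitors Hspd1 and Hsph1 were higher without overlap, and the share of all genes that were so is not given here.

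With N1-AcSpd, averaged over the cell types, the footprint log2 fold change was 0.36 for Hspb1 (SE 0.24, 95% interval -0.11 to 0.84) and 0.30 for Hsp90ab1 (SE 0.24, -0.17 to 0.78). In HFSCs over progenitors it was -0.19 for Hspb1 (SE 0.24) and -0.07 for Hsp90ab1 (SE 0.24). The value of Hspb1 with N1-AcSpd turned on the untreated progenitors. Without their replicate 1, the shallowest library, it was 0.047, and without their replicate 2, the deepest, it was 0.93 and passed (adjusted p = 0.0273 by edgeR).

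For Hspd1 the order of the cell types was not the same in both treatments. It had 176 and 276 footprint CPM in untreated progenitors, 376 and 289 in untreated HFSCs, 386 and 385 in N1-AcSpd progenitors, and 272 and 216 in N1-AcSpd HFSCs, on 7 to 68 footprints a library. Untreated HFSCs stood above untreated progenitors and N1-AcSpd HFSCs below N1-AcSpd progenitors, without overlap in either. In untreated cells Hspe1 was likewise higher in HFSCs without overlap, as were 13.9% of all genes, and Hspa8 lower, as were 15.2%. Under N1-AcSpd Dnajb1 and Hsph1 were lower without overlap like Hspd1, as were 15.9% of all genes, and Hspa1b was higher, as were 16%. The test of the difference for Hspd1, the interaction of cell type and N1-AcSpd, gave -1.07 (SE 0.70, 95% interval -2.44 to 0.30) and did not pass. The estimates of Hsp90aa1, Hspb1 and Hsph1 likewise turned from positive in untreated cells to negative under N1-AcSpd. Those of Hspa8 and Hsp90ab1 turned the other way. The interaction of Hsph1 was -1.23 (SE 0.81) and did not pass either. The share of all genes that separate in opposite directions in both treatments is not given here.

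None of the 9 members tested was called in any of the 7 Ribo-seq comparisons by edgeR or DESeq2, and none passed an unadjusted p of 0.05 in edgeR. Averaged over treatments, 2 were on the higher and 7 on the lower side in HFSCs, with a median of -0.19 against 0.00 over all 8431 genes. With N1-AcSpd 8 were higher and 1 lower, with a median of 0.21 against -0.04. DESeq2 and the replicate block each gave 7 higher and 2 lower with N1-AcSpd. The estimate of Hspe1 there was 0.037 and changed sign in 3 of 6 fits with other settings. For HFSCs over progenitors the adjusted rule called 0.0237% of all genes in untreated cells, 0.0356% under N1-AcSpd and 0.154% averaged, and 2.66%, 3.45% and 4.14% passed unadjusted. For N1-AcSpd it called 0.0237% in progenitors, 0% in HFSCs and 0.083% averaged, and 2.8%, 3.55% and 4.84% passed unadjusted. The interaction called 0%, with 2.66% unadjusted.

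**Figure D4:**
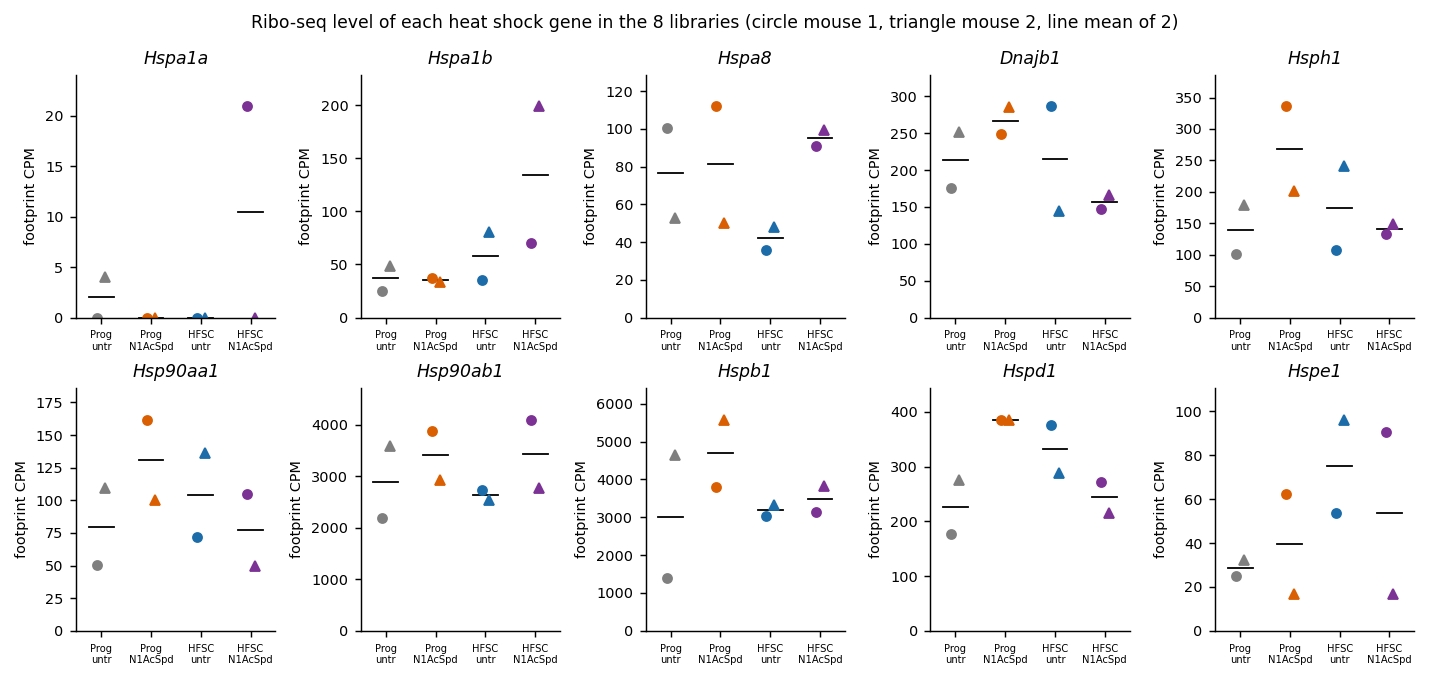
Ribo-seq level (footprint CPM, vertical axis) of each gene in the 4 groups of 2 libraries, drawn as in the plot of RNA levels. Libraries of the same group lie far apart, as for Hspb1 in untreated progenitors at 1384 and 4638 CPM, and Hspa1a is at 0 in 6 of 8 libraries.

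Translational efficiency, the change in footprints beyond that in message, was tested as the interaction of assay and group. No member of the 9 tested was called in the 4 comparisons by edgeR, which called 0% of all genes in each, or by DESeq2. In untreated HFSCs over progenitors Hspe1 passed an unadjusted p of 0.05 at 1.51 (SE 0.63, adjusted p = 0.907 by edgeR), as did 5.24% of all genes, on 3 and 12 footprints in HFSCs and 1 and 8 in progenitors. Under N1-AcSpd Hspa1b passed at 1.65 (SE 0.74, adjusted p = 0.757 by edgeR), as did 6.24%, on 10 and 12 footprints in HFSCs and 3 and 2 in progenitors. Both rest on few footprints and on coding sequences with few unique words. The fit gave each gene 1 estimate of spread for both assays. The footprint changes alone had larger SEs, 0.97 for Hspe1 and 0.95 for Hspa1b, so the SEs and p-values of efficiency may be too small. Leaving out 1 library moved the value of Hspe1 to between 0.91 (without replicate 2 of the untreated HFSC footprints) and 1.78, and that of Hspa1b to between 0.95 and 2.47 (without replicate 2 and replicate 1 of the N1-AcSpd HFSC footprints). For N1-AcSpd no member passed in progenitors (6.1% of all genes) or in HFSCs (6.87%), and in progenitors the median over all genes was itself -0.15.

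The cofactors Dnajb1 and Hsph1, whose coding words are all unique, had the lowest efficiency estimates of the 9 in HFSCs over progenitors under N1-AcSpd. Dnajb1 stood at -0.84 (SE 0.40, 95% interval -1.70 to 0.03, adjusted p = 0.757 by edgeR) and Hsph1 at -0.85 (SE 0.45, -1.82 to 0.12, adjusted p = 0.757 by edgeR). Their footprint changes alone had SEs of 0.56 and 0.58, so these intervals may be too narrow. In untreated cells they stood apart from each other, at -0.36 (SE 0.43) and 0.42 (SE 0.47). Hsp90ab1, the member with the second most footprints, had -0.08 (SE 0.37, 95% interval -0.87 to 0.71) in untreated cells and 0.15 (SE 0.30, -0.48 to 0.78) under N1-AcSpd.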

How the data were processed

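Counts per transcript from 8 RNA-seq and 8 Ribo-seq libraries were used as deposited. Per the labels and the methods, the authors used flexbar for adapters, Bowtie 1.2.3 to discard rRNA and tRNA and STAR 2.7.3a for alignment to GRCm38.p5. Tools named in the submitters' processing notes include featureCounts. The counted region, the use of strand and the treatment of reads with several matches are not given in the sources used here. The number of per-sample columns with no sample was 0. The authors' tables of their own comparisons, which hold fold changes and p-values, were not used.

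The transcript with the most Ribo-seq counts stood for each gene, and genes averaging 1 count or more were fitted with edgeR 4.0.16 (R 4.3.3; TMM scaling, quasi-likelihood test, Benjamini-Hochberg adjustment over all genes, threshold 0.05), with all 8 libraries of an assay in 1 fit. Translational efficiency was the interaction of assay and group over the libraries of each comparison. DESeq2 1.42.0 was an alternative, and the scripts were tested on simulated data. In the simulation of HFSCs over progenitors averaged over treatments, 67 genes per assay were given a 1.5-fold change and 67 a 2-fold change. With 14069 genes tested in RNA-seq, 62.69% of the 1.5-fold and 85.07% of the 2-fold changes were called. With 7923 genes tested in Ribo-seq, 14.93% of the 2-fold changes were called. The rate for changes under 1.5-fold was not tested, nor was that for the members themselves. Words, promoters and coding sequences were read from GRCm38.p6 (RefSeq) and GENCODE M21 with Python 3.11.15 and Biopython 1.88, and each coding stretch printed is the 120 gap-free aligned bases with the most differences, the first of ties.

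The members and all lists were chosen with earlier results of these data known. Named genes were the 10 members, then from the wider lists those called and at most 3 with the smallest p in each direction per comparison (averaging 10 counts or more), of which a selection is given, and the 5 profiles most like each of 2 member sets among genes averaging 100 counts or more. The replicate number marks the mouse in the labels, which pairs the libraries. Same-mouse deviations correlated at 0.40 to 0.74 among 3 groups in RNA-seq, at -0.69 to -0.38 with N1-AcSpd HFSCs, and at 0.02 to 0.11 in Ribo-seq.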

Additional observations from a re-analysis of the deposited data

How the results depend on the processing

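Of 261 alternative fits of the 18 comparisons, 257 called no member. The fits were DESeq2, RLE scaling, a minimum mean of 10 counts or none, counts summed over all transcripts of a gene, Hspa1a and Hspa1b summed, the libraries of 1 comparison alone, all 16 libraries together for translational efficiency, the mouse as a replicate block, that block with the mouse numbers of the N1-AcSpd HFSC RNA-seq libraries exchanged, and leaving out each library. The replicate block changed no member's call, with an adjusted p of 0.0967 for Hspd1 in HFSCs by edgeR, and took all-gene calls in RNA-seq to 3, 44, 7 and 135 from 21, 106, 34 and 233, and translational calls for N1-AcSpd in progenitors to 5 from 0. DESeq2 called 268 genes in untreated HFSCs over progenitors, 375 under N1-AcSpd, 174 and 125 for N1-AcSpd in progenitors and in HFSCs, and 949 and 581 in the averaged comparisons. The exchanged block, chosen after the data were seen, called 1 member (Hspd1) among 751 genes in untreated HFSCs over progenitors and 2 (Hspd1 and Hspb1) among 1948 in the averaged comparison, up from 21 and 556 genes. Leaving out a library gave 0 to 1 members called for N1-AcSpd in Ribo-seq, in progenitors and averaged, the 1 being Hspb1 without replicate 2 of the untreated progenitors. Among 27 named fold changes, those from Ribo-seq alone were of Hspb1 and Hsp90ab1. Of 423 alternative values of these 27 fold changes 9 changed sign, all when 1 library was left out. Their ranges were -0.026 to 0.13 for Dnajb1 RNA, -0.21 to 0.17 for Hsp90ab1 footprints and -0.46 to 0.41 for Hspb1 footprints in HFSCs over progenitors, and -0.10 to 0.0032 for Hsp90ab1 RNA and -0.035 to 0.18 for Hsph1 RNA with N1-AcSpd, and the cause was not tested. Footprint counts limit the rest, since 4 of the 9 members tested had under 100 footprints over 8 libraries. In a simulation of translational efficiency in untreated HFSCs over progenitors, 58 unchanged genes were called when footprints varied more than RNA counts.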
